A study of Mus musculus with 4 samples.

Results

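The tetraspanins described here are 10 genes of mouse blastocysts, Tspan1, Tspan3, Tspan4, Tspan8, Tspan14, Cd9, Cd63, Cd81, Cd82 and Cd151, out of 23235 gene symbols listed for each library. They were found by exact symbol, and each of the 10 was present in every library. The set was put together with the SCNT and IVF values of these libraries known, Tspan1 and Tspan8 being its starting point, so the differences of its members between the groups are given as a description, without a test. A further 21 tetraspanin genes, listed from general knowledge of the family, are the other tetraspanins of the text.

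Tetraspanins are small membrane proteins that span the membrane repeatedly and bear a short and a long extracellular loop, the long one with a conserved cysteine motif. They bind integrins, immunoglobulin-domain proteins and membrane proteases and gather them, with one another, into tetraspanin-enriched microdomains. In the early mouse embryo they are known from the egg surface, where Cd9 is needed for fusion with the sperm, and from the outer epithelium of the blastocyst, the trophectoderm, of which Tspan8 is a marker.

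RNA was measured in early blastocysts lysed 96 hours after activation or fertilization, as 2 libraries of somatic cell nuclear transfer (SCNT) embryos and 2 libraries of in vitro fertilization (IVF) embryos, each from 6 pooled embryos. In SCNT the nucleus of a somatic cell takes the place of the egg's own. The donor nuclei came from mouse embryonic fibroblasts that were heterozygous for an Xist knockout (KO) and had a 129S1/SvImj Xist KO mother and a CAST/EiJ father, and they were placed in oocytes of B6D2F1/J (BDF1) females. The IVF embryos came from Xist KO oocytes of 129S1/Svj background and wild-type CAST/EiJ sperm, so both groups carried a knocked-out Xist allele of maternal 129 origin. The egg cytoplasm therefore also differed in strain between the groups and cannot be told apart from the way of making the embryo. In the SCNT data the column headers contain kdm4d, after a histone demethylase gene. The labels are silent on it, and its use in these embryos is not known from the sources used here. The labels do not say whether the embryos of one library had other parents, or were made on another day, than those of the next. The p-values then rest on a spread that may be technical. In bulk libraries, fewer cells of a type and less RNA per cell cannot be told apart.

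Values were taken to be FPKM, a count of fragments scaled by transcript length and by the mapped fragments of the library, a unit inferred from the tools named by the submitters. FPKM is per length and allows levels of different genes to be compared. Libraries summed to between 933167 and 985197 FPKM, and between 10802 and 10923 genes reached 1 FPKM. No counting error can be given, as the absolute depth is unknown. Xist was listed at 4.13 and 3.33 FPKM in the SCNT libraries and at 1.09 and 13.9 FPKM in the IVF libraries, which does not check the genotype, since the deleted part is not given. All 15 trophectoderm markers and all 10 of the inner cell mass were above 1 FPKM in at least 1 library. Of 11 fibroblast markers 9 stayed under 1 FPKM in every library, as did 9 of 10 cumulus and granulosa cell markers and 7 of 10 oocyte markers.

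The promoters of Tspan1, the member with the largest ratio between the groups, of Tspan8, the other member that gives the set its name, of Cd9, which is abundant in both groups, and of Tspan17, a tetraspanin outside the set with lower values in SCNT, are shown for their contrast in CpG content. Each is the run of 250 bases before the gene's start in RefSeq (GRCm38.p6 assembly, not the mm9 build of the deposited values), 5′ to 3′ on the gene's strand. Capitals mark matches on either strand to 5 motifs. These are GCCNNNGGC, known to be bound by TFAP2 factors, GGAATG, known to be bound by TEAD factors, AGATAA, known to be bound by GATA factors, TTTAT, known to be bound by CDX factors, and GGGCGG, known as the GC box. In Tspan1 a GC box and a TFAP2 match lie end to end. In Tspan17 the leftmost capitals are a TFAP2 match that overlaps a GC box.
Tspan1, chr4:116167599-116167848, minus strand: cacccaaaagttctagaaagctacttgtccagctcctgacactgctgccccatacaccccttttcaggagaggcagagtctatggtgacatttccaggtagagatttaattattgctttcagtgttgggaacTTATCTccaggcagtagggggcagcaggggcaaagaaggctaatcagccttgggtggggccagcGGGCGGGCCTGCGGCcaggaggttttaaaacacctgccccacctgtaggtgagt
Tspan8, chr10:115817034-115817283, plus strand: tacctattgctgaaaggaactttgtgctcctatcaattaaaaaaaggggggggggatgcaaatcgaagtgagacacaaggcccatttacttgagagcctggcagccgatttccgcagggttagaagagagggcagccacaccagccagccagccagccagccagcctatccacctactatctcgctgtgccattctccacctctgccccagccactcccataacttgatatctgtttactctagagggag
Cd9, chr6:125494761-125495010, minus strand: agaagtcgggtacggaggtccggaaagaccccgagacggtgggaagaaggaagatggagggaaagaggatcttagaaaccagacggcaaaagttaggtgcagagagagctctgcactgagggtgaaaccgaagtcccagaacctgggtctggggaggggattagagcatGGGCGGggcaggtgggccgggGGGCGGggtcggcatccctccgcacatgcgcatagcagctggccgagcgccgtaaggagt
Tspan17, chr13:54789155-54789404, plus strand: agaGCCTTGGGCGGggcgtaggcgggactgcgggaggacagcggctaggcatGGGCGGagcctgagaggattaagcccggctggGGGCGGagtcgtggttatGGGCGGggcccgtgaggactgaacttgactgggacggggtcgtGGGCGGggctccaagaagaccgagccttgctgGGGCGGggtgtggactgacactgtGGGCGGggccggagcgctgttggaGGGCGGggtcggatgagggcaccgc

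The windows of Tspan1 and Tspan8 held 3 and 4 CpG dinucleotides, against a median of 6 over 32841 promoters of the same length. Of all promoters, 29.0% held fewer than Tspan1 and 37.8% fewer than Tspan8, so neither count is rare. Cd9 held 16 and Tspan17 held 22, which 74.6% and 85.2% of all promoters fall below. Of the other members listed with a single start, Cd63 held 6, Tspan3 held 14 and Cd81 held 16. Members with several starts varied between them. Tspan14 held 2 and 22, Cd82 held 3, 11, 12 and 14, Cd151 held 12 and 4, and Tspan4 held 24 and 8. A link of CpG content to the difference between the groups was not tested. The TFAP2 letters occurred in 13.7% of all promoters, those of TEAD in 12.6%, of GATA in 9.99%, of CDX in 37.3% and the GC box in 32.7%. The 10 members had 16 promoters in the table, of which 6 held the TFAP2 letters, 2 TEAD, 1 GATA, 8 the GC box and 0 CDX. The window of Tspan8 held none of the 5 motifs, which says only that these letters are not in it.

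Tspan1, a tetraspanin of epithelia that is abundant in several carcinomas, had 33.8 and 21.5 FPKM in the SCNT libraries, against 4.43 and 4.32 FPKM in the IVF libraries. Both SCNT libraries lay above both IVF libraries, and the lower SCNT value was 4.86 times the higher IVF value. The means were 27.7 ± 8.72 FPKM in SCNT and 4.37 ± 0.0736 FPKM in IVF (SD, n = 2 each), a ratio of 6.33. On the log2(FPKM + 1) scale, which understates the change of low genes, the difference was 2.38 ± 0.26 (SE from the fit to all genes). It was 2.68 between the libraries numbered 1 and 2.08 between those numbered 2. Among genes other than short RNAs at 1 FPKM or more, Tspan1 stood above 75.5% and 67.1% in the SCNT libraries and above 29.0% and 29.4% in the IVF libraries.

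Tspan8, a glycoprotein of gut epithelium and carcinomas as well as of trophectoderm, had 434 and 394 FPKM in the SCNT libraries and 176 and 220 FPKM in the IVF libraries. The groups did not overlap, and the lower SCNT value was 1.79 times the higher IVF value. Mean levels were 414 ± 28.4 FPKM in SCNT and 198 ± 30.8 FPKM in IVF (SD, n = 2 each), a ratio of 2.09, and the log2 difference was 1.07 ± 0.21 (SE). Tspan8 stood above 97.1% and 96.4% of genes in the SCNT libraries and above 93.7% and 94.2% in the IVF libraries, so it was an abundant transcript in both groups, whereas Tspan1 was not in IVF. In FPKM, Tspan8 was 12.8 and 18.3 times as high as Tspan1 in the SCNT libraries and 39.8 and 50.9 times as high in the IVF libraries.

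**Figure D1:**
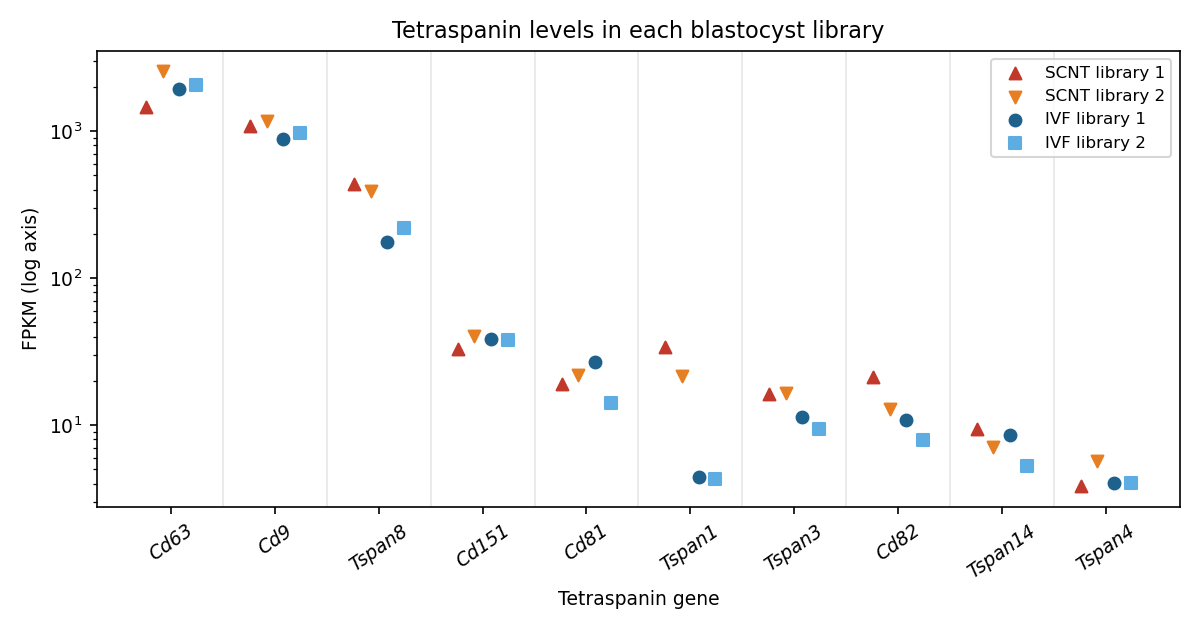
FPKM on a log axis (vertical) of each of the 10 tetraspanins (horizontal, ordered by mean level), with 1 point per library, SCNT left of IVF. Tspan1 has 33.8 and 21.5 FPKM in SCNT, clear of 4.43 and 4.32 FPKM in IVF, while Cd63 and Cd151 have IVF points between their SCNT points.

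Markers of trophectoderm are given beside these values. Their summed FPKM was 7556 and 5382 in the SCNT libraries and 5555 and 4874 in the IVF libraries, and none of the 15 was at 0. Most of each sum came from the keratins Krt18 and Krt8, whose groups overlapped. Krt18 had 3979 and 2257 FPKM in SCNT and 2647 and 1956 FPKM in IVF. Krt8 had 1710 and 1427 FPKM in SCNT and 1489 and 1428 FPKM in IVF. The far less abundant keratins Krt7 and Krt19 were higher in SCNT without overlap. Krt7 had 46.4 and 52.95 FPKM in SCNT and 29.7 and 38.4 FPKM in IVF. With limma, 0 of the 15 passed an adjusted p under 0.05, and 5 were higher and 0 lower at an unadjusted p under 0.05. Over all 11039 genes tested, 0.127% passed the adjusted threshold. By the unadjusted rule 4.25% were higher and 2.84% lower. Both groups' libraries were apart, with SCNT higher, for 6 of the 15 and with SCNT lower for 0, where 18.3% of all tested genes were apart with SCNT higher and 15.1% with SCNT lower. The 6 apart were Krt7, Krt19, Id2, Elf5, Eomes and Cdx2. Values of the 6 DNA-binding transcription factors among the 15 markers, chosen after the values were seen, differed in direction. Elf5 had 17.9 and 9.50 FPKM in SCNT and 3.23 and 3.88 FPKM in IVF, Eomes 43.5 and 24.4 FPKM in SCNT and 18.8 and 14.2 FPKM in IVF, and Cdx2 36.6 and 29.5 FPKM in SCNT and 20.0 and 21.7 FPKM in IVF, each without overlap. For the other 3 the groups overlapped, with 145 and 124 FPKM of Gata3 in SCNT and 139 and 115 FPKM in IVF, 39.2 and 33.3 FPKM of Tfap2c in SCNT and 47.5 and 36.9 FPKM in IVF, and 32.2 and 29.6 FPKM of Tead4 in SCNT and 38.1 and 27.9 FPKM in IVF.

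Markers of primitive endoderm, the inner layer that gives rise to yolk sac endoderm, summed to 374 and 322 FPKM in SCNT and 371 and 277 FPKM in IVF, and 8 of the 10 were tested. None passed with limma. Over all tested genes, 0.127% passed an adjusted p under 0.05. At an unadjusted p under 0.05, 4.25% were higher and 2.84% lower. The groups were apart for 18.3% with SCNT higher and for 15.1% with SCNT lower. Of these markers, 4 were apart with SCNT higher and 0 with SCNT lower, and 3 were higher and 0 lower at an unadjusted p under 0.05. The 3 were Sparc, with 63.1 and 80.1 FPKM in SCNT and 35.2 and 27.9 FPKM in IVF, Lama1, with 8.24 and 9.33 FPKM in SCNT and 5.21 and 4.94 FPKM in IVF, and Gata4, with 9.77 and 9.18 FPKM in SCNT and 6.59 and 5.09 FPKM in IVF. Sparc and Lama1 encode matrix proteins and Gata4 a transcription factor. Of the 8 tested, 4 had a higher and 4 a lower estimate in SCNT. The lower ones were Gata6 (difference -0.25), Col4a1 (-0.14), Dab2 (-0.07) and Sox17 (-0.04), each with overlapping groups. Markers of the inner cell mass, all 10 tested, summed to 452 and 464 FPKM in SCNT and 408 and 422 FPKM in IVF. For 2, Tdgf1 and Gdf3, the groups were apart with SCNT higher, and for 0 with SCNT lower. Their estimates were higher in SCNT for 5 and lower for 5. Fibroblast markers, the donor cell type, summed to 6.39 and 1.22 FPKM in SCNT and 3.50 and 1.65 FPKM in IVF, with Twist2 at 0 throughout and Col1a1 at 3.38 FPKM in SCNT library 1. The part of any of these cell types in the Tspan1 and Tspan8 values was not tested.

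Among the other members, 3 had no overlap between the groups, all higher in SCNT. Cd82, known as a suppressor of metastasis, had 21.2 and 12.8 FPKM in SCNT and 10.9 and 7.98 FPKM in IVF, and its lower SCNT value was only 1.18 times its higher IVF value. Its difference, 0.76 ± 0.30 (SE), changed to 0.42 without SCNT library 1 and to 1.11 without SCNT library 2. Tspan3 had 16.2 and 16.6 FPKM in SCNT and 11.3 and 9.48 FPKM in IVF, a difference of 0.62 ± 0.18 (SE). The tightly grouped Cd9 had 1085 and 1172 FPKM in SCNT against 885 and 964 FPKM in IVF, a ratio of means of 1.22 and a difference of 0.29 ± 0.21 (SE), with 0.29 and 0.28 in the libraries numbered 1 and 2.

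So for 5 of the 10 members the SCNT values lay wholly above the IVF values and for 0 wholly below, where 18.3% of all tested genes lay above in that way and 15.1% below. Since the members were picked with this comparison in view, nothing is read from that count. Without SCNT library 1, 8 lay above and 0 below, with Tspan4, Cd63 and Cd151 joining those above. Without SCNT library 2, 6 lay above and the same 3 genes lay below. Without IVF library 1, 7 lay above and 0 below, and without IVF library 2, 5 lay above and 1, Cd81, below. With only 1 library in a group, values lie apart more easily. The share over all genes was not computed for these settings, so nothing is read from these counts either. The median difference of the 10 members was 0.27, against 0.01 over all genes tested. That median rests on the same choice of members, so nothing is read from it. All 10 passed the filter of a mean of 1 FPKM.

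For the other 5 members the groups overlapped. Cd63, a protein of late endosomes, lysosomes and exosomes, was the most abundant tetraspanin in every library. It had 1469.7 and 2546 FPKM in SCNT, a 1.73-fold spread that enclosed the 1937 and 2045 FPKM of IVF, and its difference of -0.04 turned to 0.36 without SCNT library 1 and was -0.44 without SCNT library 2. Cd151, which binds laminin-binding integrins, had 32.9 and 40.7 FPKM in SCNT and 38.6 and 37.7 FPKM in IVF (difference -0.06, with 0.09 without SCNT library 1 and -0.21 without SCNT library 2).

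Cd81, a close relative of Cd9 that is also found on the egg surface, had 19.2 and 21.9 FPKM in SCNT, inside the 26.8 and 14.1 FPKM of IVF. Its difference of 0.07 turned to -0.02 without SCNT library 2 and to -0.37 without IVF library 2, and was 0.51 without IVF library 1. The gene lies in the distal chromosome 7 imprinted region, next to Tspan32 among coding genes, and is known for maternal expression in mouse extraembryonic tissue. These values are not resolved by allele. Tspan32 was listed at 0 in both SCNT libraries and at 0.0393 and 0.0341 FPKM in IVF, too low for the test.

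Tspan14, one of the TspanC8 proteins that carry the protease Adam10 to the cell surface, had 9.40 and 7.14 FPKM in SCNT and 8.54 and 5.27 FPKM in IVF (difference 0.25, with -0.05 without IVF library 2 and 0.55 without IVF library 1). Tspan4, which organises migrasomes, the membrane vesicles left behind by migrating cells, had 3.86 and 5.72 FPKM in SCNT and 4.06 FPKM in both IVF libraries (difference 0.18, with -0.06 without SCNT library 2 and 0.41 without SCNT library 1). Part of Tspan4 overlaps Chid1 in the RefSeq annotation, as Cd81 does R74862 and Cd82 does Gm10804, and since strand use is not given their reads may be shared.

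**Figure D2:**
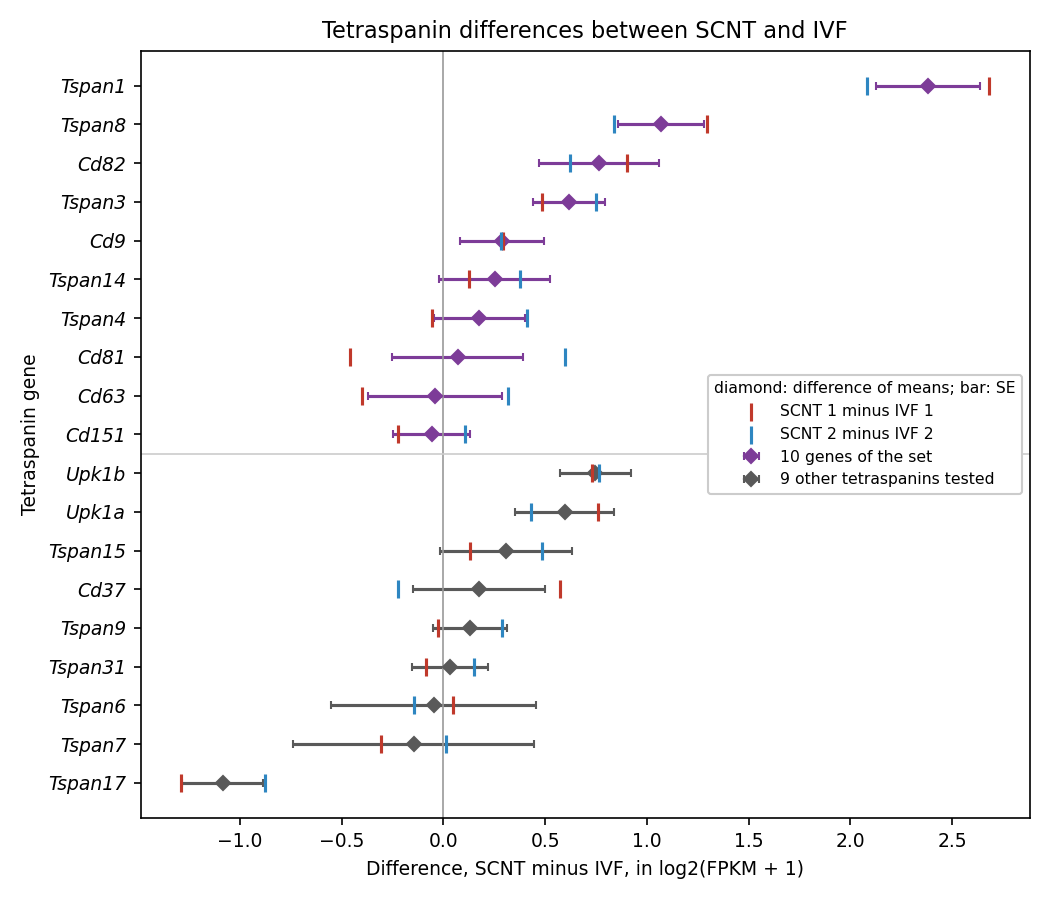
Difference of SCNT minus IVF in log2(FPKM + 1) (horizontal) for the 10 genes of the set, above the line, and the 9 other tetraspanins tested, below it. Diamonds are differences of group means with SE bars, and ticks are the differences between same-numbered libraries. Tspan1 at 2.38 and Tspan17 at -1.08 are the ends of the range.

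By mean FPKM the order in SCNT was Cd63, Cd9, Tspan8, Cd151, Tspan1, Cd81, Cd82, Tspan3, Tspan14 and Tspan4. In IVF it was Cd63, Cd9, Tspan8, Cd151, Cd81, Tspan3, Cd82, Tspan14, Tspan1 and Tspan4. The ranges of neighbours in SCNT overlapped from Cd151 down to Tspan3, so the order of neighbours among those 5 genes is not settled by these libraries. Genes further apart in it could be separate, as Cd151 lay wholly above Cd81, Cd82 and Tspan3. In IVF they overlapped between Tspan3 and Cd82 and between Cd82 and Tspan14. Tspan1 thus stood in place 5 in SCNT and in place 9 in IVF, where 4.43 and 4.32 FPKM were above the 4.06 FPKM of Tspan4 and below every value of Tspan14.

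Summed over all 31 tetraspanin genes, the libraries held 3237 and 4364 FPKM in SCNT and 3229.7 and 3432 FPKM in IVF. Cd9 and Cd63 together made up 78.9% and 85.2% of that sum in SCNT and 87.4% and 87.7% in IVF. Tspan8 made up 13.4% and 9.03% in SCNT and 5.46% and 6.40% in IVF. With Cd9 and Cd63 set aside, the remaining 29 genes summed to 682 and 647 FPKM in SCNT and 408 and 424 FPKM in IVF. Without Tspan8 as well they summed to 248 and 253 FPKM in SCNT and 232 and 204 FPKM in IVF. Each of these sums includes Tspan31, with 78.2 and 93.2 FPKM in SCNT and 83.2 and 83.7 FPKM in IVF. Its reads are uncertain, as it overlaps Cdk4 in the RefSeq annotation.

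**Figure D3:**
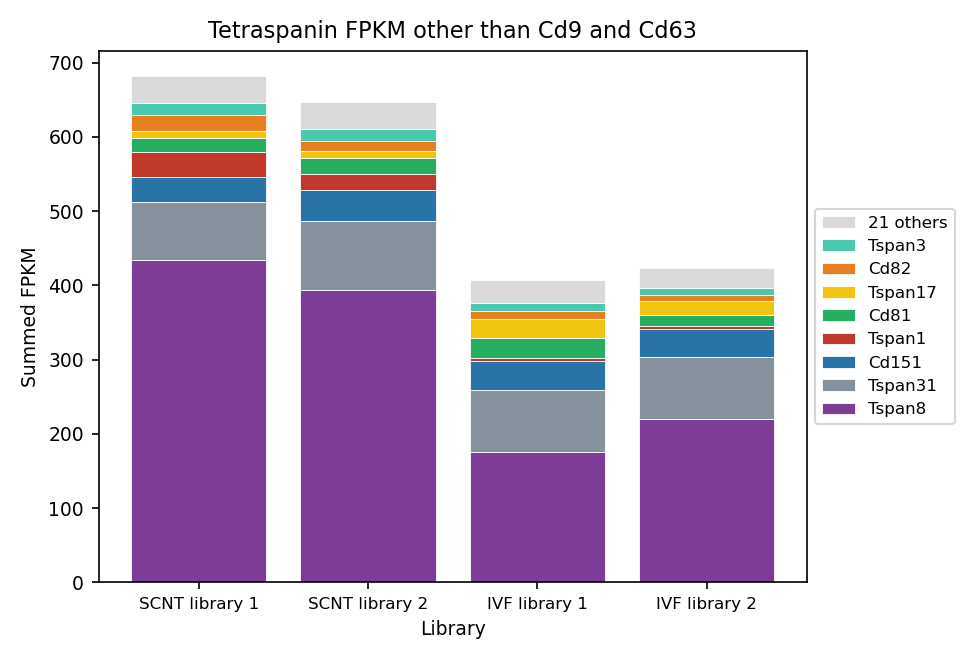
Summed FPKM (vertical, from 0) of the tetraspanins other than Cd9 and Cd63 in each library, stacked by gene. The bars reach 682 and 647 FPKM in SCNT and 408 and 424 FPKM in IVF, and Tspan8 is the tallest block in every bar. The Tspan31 block is uncertain, as that gene overlaps Cdk4 in the RefSeq annotation.

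Of the other 21 tetraspanins, 9 reached a mean of 1 FPKM and were tested with limma. None passed an adjusted p under 0.05 over all genes, a threshold that 0.127% of all tested genes passed, 0.0725% as higher and 0.0544% as lower. At an unadjusted p under 0.05, which 7.09% of all tested genes had, 1 was higher (Upk1b) and 1 lower (Tspan17), and 7 were neither. Their median difference was 0.13, against 0.01 over all genes tested.

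Tspan17, another TspanC8 protein, had 9.69 and 10.01 FPKM in SCNT and 25.1 and 19.2 FPKM in IVF. The groups were well apart, with means of 9.85 ± 0.229 FPKM in SCNT and 22.2 ± 4.15 FPKM in IVF (SD, n = 2 each), a difference of -1.08 ± 0.20 (SE). The limma adjusted p was 0.310, and it lay between 0.101 and 0.759 under the alternatives. Tspan17 made up 38.3% and 45.8% of the FPKM of the 6 TspanC8 genes in SCNT and 63.0% and 70.3% in IVF. Tspan15, a further TspanC8 gene, had 4.65 and 3.23 FPKM in SCNT and 4.16 and 2.02 FPKM in IVF, which overlap. Adam10 itself had 6.15 and 6.002 FPKM in SCNT and 6.94 and 6.05 FPKM in IVF, also overlapping.

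Upk1a and Upk1b, the tetraspanin subunits of the uroplakin plaques of bladder urothelium, were low in these embryos. Upk1b had 3.97 and 4.07 FPKM in SCNT and 1.999 and 1.98 FPKM in IVF, a ratio of 2.02 and a difference of 0.75 ± 0.17 (SE). The replicates lay close together, yet the adjusted p was 0.420 (limma; 0.151 to 0.982 under the alternatives). Upk1a had 4.01 and 2.53 FPKM in SCNT and 1.96 and 1.62 FPKM in IVF, a difference of 0.60 ± 0.24 (SE; adjusted p = 0.744), which was 0.34 without SCNT library 1.

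For the other tested genes of this group the libraries of SCNT and IVF overlapped. Tspan31 had 78.2 and 93.2 FPKM in SCNT and 83.2 and 83.7 FPKM in IVF. It overlaps Cdk4 in the RefSeq annotation, so its reads are uncertain. Tspan9 had 4.49 and 5.001 FPKM in SCNT and 4.59 and 3.92 FPKM in IVF, and Cd37, a leukocyte tetraspanin, had 2.29 and 0.821 FPKM in SCNT and 1.22 and 1.12 FPKM in IVF.

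Proteins known to bind tetraspanins were listed as 24 genes, of which 15 were tested. None passed an adjusted p under 0.05 with limma, where 0.127% of all tested genes did. At an unadjusted p under 0.05, 0 were higher and 1 was lower, where 4.25% of all tested genes were higher and 2.84% lower. With 15 genes tested, nothing is read from that count. The median difference was -0.04. Ifitm1, an interferon-induced membrane protein that associates with Cd81, was the 1 lower gene. It had 0.498 and 0.771 FPKM in SCNT and 1.81 and 2.87 FPKM in IVF, values near the filter (difference -1.02 ± 0.24 SE, adjusted p = 0.440). Ifitm3 had 6.21 and 4.86 FPKM in SCNT and 6.21 and 7.62 FPKM in IVF, with the first value of each group nearly alike.

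Hbegf, a membrane-anchored growth factor whose activity Cd9 raises, had 1.65 and 3.903 FPKM in SCNT and 0.736 and 1.29 FPKM in IVF (difference 0.85 ± 0.35 SE, adjusted p = 0.751). That difference was 0.41 without SCNT library 2 and 1.30 without SCNT library 1. The integrin subunit genes showed small differences. Itga6 had 15.3 and 19.9 FPKM in SCNT and 13.5 and 14.8 FPKM in IVF, Itga3 had 7.39 and 7.498 FPKM in SCNT and 5.97 and 6.76 FPKM in IVF, and Itgb1 had 17.3 and 14.2 FPKM in SCNT and 22.0 and 16.8 FPKM in IVF. Of the immunoglobulin-domain partners of Cd9 and Cd81, Igsf8 had 1.81 and 1.71 FPKM in SCNT, inside the 2.30 and 0.832 FPKM of IVF. Ptgfrn had 4.56 and 4.58 FPKM in SCNT and 5.85 and 4.85 FPKM in IVF.

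Of 23 genes of multivesicular bodies, lysosomes and exosome release, the compartments of Cd63, 21 were tested. None passed an adjusted p under 0.05 with limma, where 0.127% of all tested genes did. At an unadjusted p under 0.05, 1 was higher and 1 lower, where 4.25% of all tested genes were higher and 2.84% lower. With 21 genes tested, nothing is read from that count. Timp1, a metalloproteinase inhibitor that binds Cd63, was the higher one, with 19.8 and 29.0 FPKM in SCNT and 15.7 and 13.8 FPKM in IVF (difference 0.67 ± 0.24 SE, adjusted p = 0.643). Its difference was 0.40 without SCNT library 2. Flot1, a lipid raft protein, was the lower one, with 13.8 and 12.1 FPKM in SCNT and 20.3 and 18.0 FPKM in IVF (difference -0.53 ± 0.18 SE, adjusted p = 0.594). The lysosomal membrane gene Lamp2 had 15.0 and 18.9 FPKM in SCNT and 21.5 and 29.7 FPKM in IVF, and the syndecan gene Sdc1 had 2.06 and 1.17 FPKM in SCNT and 2.66 and 2.33 FPKM in IVF. The list had a median difference of -0.08.

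The genes most like Tspan1 and Tspan8 over the 4 libraries were found by the Euclidean distance between log2(FPKM + 1) values centred on each gene's mean, among 9675 tested genes of other families. These are picked by likeness to 2 genes that were themselves picked for this contrast, and a profile of 4 values is matched by many genes, so they are a description. The nearest to Tspan1 were Krt19 at a distance of 0.58, H19 at 0.64, Slc39a2 at 0.65, and Serpina3m and Elf5, both at 0.78, where the median gene was at 2.43. Krt19 is a keratin of simple epithelia, H19 an imprinted non-coding RNA, Slc39a2 a zinc transporter, Serpina3m a protease inhibitor and Elf5 a transcription factor of trophoblast. Krt19 is also among the 15 trophectoderm markers, where its difference of 2.04 was the largest.

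Like Tspan1, 4 of the 5 had SCNT library 1 as their highest. Krt19 had 14.3 and 6.41 FPKM in SCNT and 1.18 and 2.07 FPKM in IVF. Slc39a2 had 18.2 and 7.18 FPKM in SCNT and 2.08 and 2.55 FPKM in IVF. The exception, Serpina3m, had 7.03 and 7.58 FPKM in SCNT and 1.63 and 0.917 FPKM in IVF.

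Among the nearest to Tspan8 were Atxn7l1, Hebp1, Ramp2 and Pdzk1ip1, at distances of 0.12 to 0.17 with the median gene at 1.15. Hebp1 is a haem-binding protein and Ramp2 an accessory subunit of adrenomedullin receptors. Hebp1 had 26.7 and 26.3 FPKM in SCNT and 10.6 and 12.4 FPKM in IVF. Pdzk1ip1, a small membrane protein of epithelia, was the most abundant of these 4, with 121 and 97.3 FPKM in SCNT and 41.8 and 54.1 FPKM in IVF. Each of the 4, like Tspan8, was lowest in IVF library 1 and highest in SCNT library 1.

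**Figure D4:**
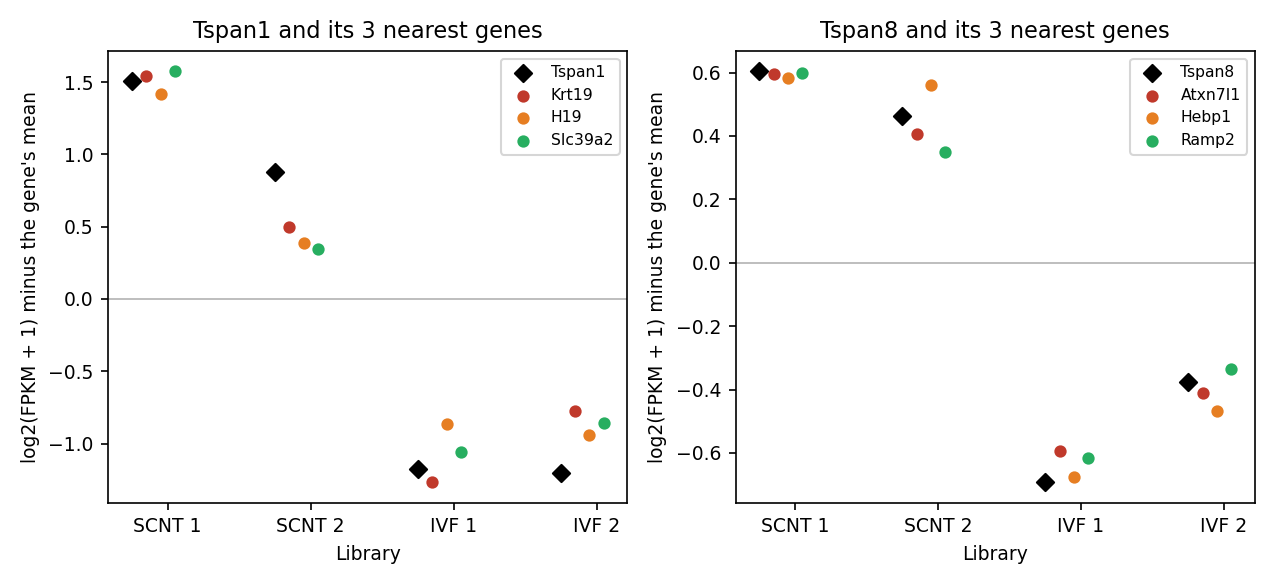
Values in log2(FPKM + 1) minus each gene's mean (vertical) in the 4 libraries (horizontal) for Tspan1 with its 3 nearest genes (left) and Tspan8 with its 3 nearest genes (right). All genes shown lie above 0 in both SCNT libraries and below 0 in both IVF libraries, which the choice by likeness fixes.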

How the data were processed

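RNA of 4 libraries, 2 of SCNT and 2 of IVF blastocysts, was analysed from the values the authors deposited, 1 per gene symbol and library, grouped by title. These were taken to be FPKM, since Cufflinks 2.2.1, TopHat2 2.0.14 and Bowtie2 2.1.0, with the mm9 build, are named per the submitters' processing notes, and the deposited values do not contradict that unit. Not given in the sources used here are the annotation, filters, strand use and any scaling across libraries. Per the labels' protocols, cDNA was amplified from lysed embryos with a SMARTer kit, which adds noise to low genes.

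Genes with a mean of at least 1 FPKM, 11039 in all, were tested on log2(FPKM + 1) with limma 3.58.1 (R 4.3.3), with group alone in the design, a trend of variance on mean level and Benjamini-Hochberg adjustment over all genes tested, at 0.05. Absolute depth is unknown. From low genes, 1 fragment gave 0.959 times the FPKM in SCNT library 1 that it gave in IVF library 1 (the ratio of 7.68% of 3592 genes under 0.5 FPKM), and the other libraries gave no clear step. Alternatives were other pseudocounts, filters, scalings and priors, the replicate number as a block, and leaving out each library.

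The members, lists and tests were chosen with earlier results of these data known. Named genes are the 10 members, the tested genes of each list lowest in unadjusted p (8 other tetraspanins, 6 partners, 4 endosome and vesicle genes), Adam10, Igsf8 and Ptgfrn, and the 5 genes nearest to Tspan1 and to Tspan8, leaving out predicted and short RNA genes; 1 of those nearest to Tspan8 is not reported here. Izumo1r was matched by its older symbol. All 10 inner cell mass markers were tested, but only 1 of 11 fibroblast, 1 of 10 cumulus and 1 of 10 oocyte markers. Of those tested, 0 passed with limma and 0 had an unadjusted p under 0.05, against 0.127% and 7.09% of all tested genes. The untested ones were below the filter, so nothing is said of them. Promoters, for all 10 members, and gene overlaps are from RefSeq tables of GRCm38.p6.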

Additional observations from a re-analysis of the deposited data

How the results depend on the processing

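With limma, 14 genes passed over all genes as reported. Without a filter on low values 0 passed (1750 at an unadjusted p under 0.05), with FPKM rescaled without microRNA and small nucleolar RNA genes 6 passed, and leaving out 1 library gave 45 to 53. With every library kept, no other tetraspanin, partner or endosome gene passed under any of the alternatives run (0 in each). Between 0 and 5 of a list then had an unadjusted limma p under 0.05. Over all genes that count ran from 431 of 7516, with the filter at 5 FPKM, to 1832 of 11039, with the replicate block. Nothing is read from the list counts. The number of members higher in SCNT without overlap was 5 to 8 when 1 library was left out, and 5 under both scalings. The number lower was 0 as reported and under both scalings, 3 without SCNT library 2 and 1 without IVF library 2. With only 1 library in a group values lie apart more easily, and no share over all genes was computed for that. Tspan1 differed by 2.07 to 2.70 and Tspan8 by 0.91 to 1.23 with 1 library left out. Of 90 member values under alternatives, 6 changed sign, each with a library left out, as given beside Cd63, Cd81, Cd151, Tspan4 and Tspan14; the cause was not tested. The median difference of the other tetraspanins lay between 0.02 and 0.20, or at -0.53 with only the 2 genes above a mean of 5 FPKM, of the partners between -0.14 and 0.06 and of the endosome genes between -0.14 and 0.03. With the replicate number as a block 20 genes passed over all genes. In that limma fit 1832 of 11039 genes had an unadjusted p under 0.05, as did 5 of the 21 endosome genes. Same-numbered libraries share only a number in the labels; their deviations correlated at 0.31 over 11039 genes. No read counts were at hand, so low genes such as Upk1a, Ifitm1 and Hbegf have an unknown counting error.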

Other observations

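The X-linked tetraspanins Tspan6 and Tspan7 followed the library number and not the group. Tspan6 had 0.636 FPKM in SCNT library 1 and 0.583 FPKM in IVF library 1, against 2.19 FPKM in SCNT library 2 and 2.52 FPKM in IVF library 2. Tspan7 had 0.435 FPKM in SCNT library 1 and 0.774 FPKM in IVF library 1, against 2.86 FPKM in SCNT library 2 and 2.82 FPKM in IVF library 2. Both were named after their values were seen, and no test was run on the number.

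A further 12 tetraspanins stayed below the filter in these blastocysts. Prph2 and Rom1, of photoreceptor discs, had at most 0.0234 and 0.477 FPKM, and the leukocyte gene Cd53 at most 0.159 FPKM. Tspan10 had 0.166 and 0.429 FPKM in SCNT and was listed at 0 and 0.0491 FPKM in IVF.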
